A study of Homo sapiens with 6 samples.

Results

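The change in RNA 7-methylguanosine (m7G) was described for every peak of the authors' knockdown table, which lists 9450 peaks, 1 for each of 9450 genes, and these are all the m7G peaks analysed in the series. DLD1 is an established cell line from a human colorectal cancer. One line carried a stable METTL1 knockdown and is titled sh2, so the knockdown rests on 1 construct. The other is the control line, titled sh-NT. Each line gave 1 input library of total RNA and 1 library of the m7G immunoprecipitate (IP), which makes 4 of the 6 samples of the series. The series text speaks of replications, but with 1 library per group no difference below has a replicate check. The FDR of the authors' deposited table compares these libraries and not the conditions. The table gives the m7G difference as a log2 change without saying which line is the numerator. It was read here as knockdown over control, the direction of the table's input RNA change, and under the opposite reading every sign below turns.

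In m7G-MeRIP-seq an antibody pulls down RNA fragments that carry m7G, and a peak is a stretch with more IP than input reads. METTL1 with its partner WDR4 writes m7G inside tRNAs, and has also been described as acting on sites inside mRNAs and microRNAs. The cap at the 5' end of every mRNA is m7G too, but RNMT and not METTL1 methylates it. An antibody against m7G can bind either kind of site, and the labels do not say whether caps were removed before the pull-down.

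METTL1 itself, the targeted gene, stood at 5.80 FPKM (fragments scaled by transcript length and library size) in the control input and 3.28 FPKM in the knockdown input, a ratio of 0.566 (95% counting interval 0.436 to 0.731). WDR4 stood at 13.03 and 15.6 FPKM. Intervals on FPKM ratios come from read numbers recovered from the deposited values and cover counting error only. Input libraries had effective sizes of 10454179 (control) and 11625162 (knockdown) reads. The depth of the IP libraries was not analysed here. Of the colon epithelial markers fixed for the check, 11 were among the listed genes, 7 of them higher and 4 lower in the knockdown input. Examples are KRT8 at 1178 and 1399 FPKM, CDH1 at 91.7 and 80.8 FPKM and CEACAM6 at 1.22 and 0.141 FPKM. None of the fibroblast, leukocyte or endothelial markers had a listed peak, nor did some colon markers such as VIL1 and CEACAM5. Only genes with an m7G peak are listed, so a missing marker says nothing about its RNA level.

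The first 30 bases from the RefSeq start are shown for 10 genes, to give the letters that lie under called peaks at an annotated 5' end. They are, in each direction, the 5 genes with the smallest FDR among eligible called peaks. Such peaks hold this stretch within a single block, so their place at the start comes from the choice. Their genes also had a mean input of at least 1 FPKM and an available start sequence. Called genes with a smaller FDR that lacked either were left out. The first 5 genes had higher m7G and the last 5 lower m7G in the knockdown. Capitals mark AGGT, the core of the tRNA motif that METTL1 is known to methylate (AGGU in RNA), or an unbroken run of C and T at the first base, which begins with C.
CHMP4B: ggagaggcctgcggcggcagggagcggcgg
ZNF768: agacgtccggcctcgggggcccgggctggg
HSP90B1: agtgggcggaccgcgcggctggAGGTgtga
SNX3: CTCTTCgcgaccgctgcgcgcgagccccgt
PABPN1: agtctgagcggcgatggcggcggcggcggc
ATP5C1: ctgaccgaccttcagcagggctgtggctac
C12orf75: ggtttccgcccggcagcccgcagcccgctg
RALGAPB: agtcggaagttgcctgagcagatcccagcc
MYL12B: aggcaggaagtgtcggcgccgccactgtcc
MALAT1: aggcattgaggcagccagcgcaggggcttc
The sequences are RefSeq's on GRCh38.p14. Those of the higher genes are at chr20:33811348-33811377 (plus strand), chr16:30526537-30526566 (minus), chr12:103930410-103930439 (plus), chr6:108261011-108261040 (minus) and chr14:23321457-23321486 (plus). Those of the lower genes are at chr10:7788177-7788206, chr12:105330691-105330720, chr20:38472843-38472872, chr18:3262133-3262162 and chr11:65499045-65499074, all on the plus strand. AGGT occurred in 1 of the 10, and 1, SNX3, began with a pyrimidine run. Counted in bases from the RefSeq start, with minus for upstream, the 5' edge of the peak lay at -220 in SNX3 and -195 in ZNF768. In the other genes it lay between -75 and -19. Where the peak reaches upstream, the bases shown may not be the first of the RNA under it.

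The m7G differences fell about evenly on both sides of 0. The median log2 change over the 9450 peaks was 0.0043, with quartiles of -0.52 and 0.51 and a range from -4.06 to 3.67. It was above 0 for 4737 peaks (50.1%), below 0 for 4597 (48.6%) and exactly 0 for 116. The authors' FDR was under 0.05 for 290 higher peaks (3.07% of the peaks) and 206 lower peaks (2.18%), 496 together (5.25%). Most peaks changed at least 2-fold did not reach this FDR. There were 1045 (11.1%) higher by a factor of 2 or more and 1080 (11.4%) lower by as much, and of these 2125 only 207 had an FDR under 0.05. Seen from the other side, 207 of the 496 peaks changed at least 2-fold, beside 22.5% of all peaks. Below, a called peak is one with an FDR under 0.05.

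**Figure D1:**
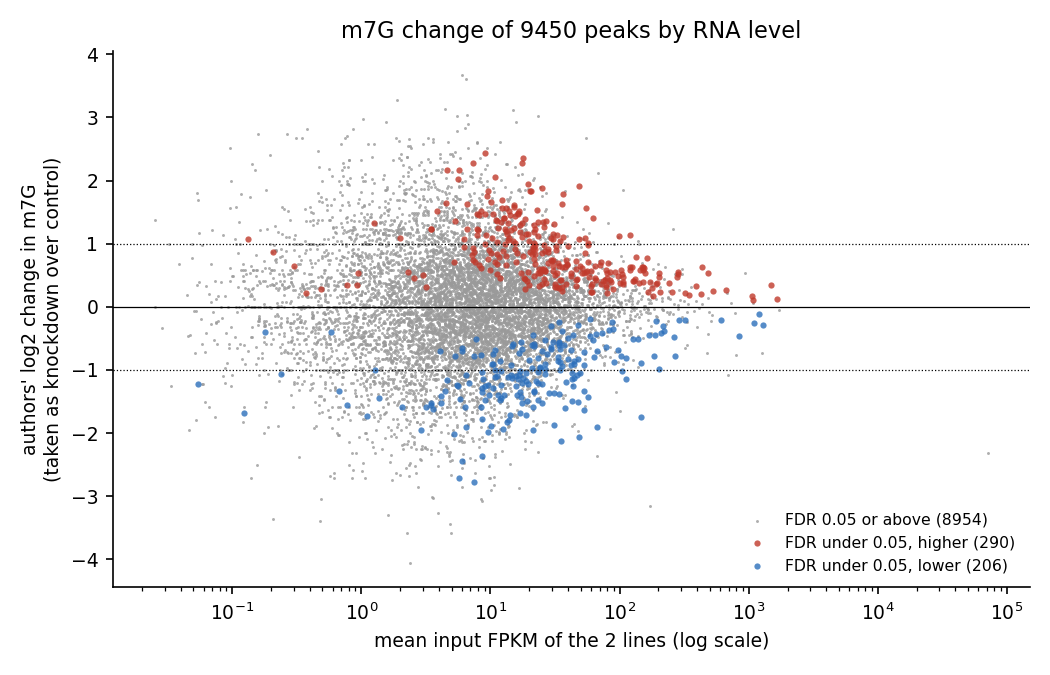
Authors' log2 change in m7G (vertical axis, read as knockdown over control) against the mean input FPKM of both lines (horizontal log axis), 1 point per peak. Grey points have an FDR of 0.05 or above, red and blue points are the 290 higher and 206 lower called peaks, and dotted lines mark 2-fold. Called peaks past 2-fold lie mostly between 5 and 100 FPKM, and those of the most abundant RNAs have small changes.

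Of the 24 genes with the smallest FDR, 12 in each direction, 10 changed at least 2-fold, and their mean input had a median of 82.2 FPKM, against 7.03 over all peaks. RPS2, a protein of the small ribosomal subunit, stood at 1519 FPKM in the control input and 1464 FPKM in the knockdown input. In the authors' deposited table its m7G was higher by 0.34 on the log2 scale, a 1.27-fold change (FDR 2.51e-29). CHMP4B, a subunit of the ESCRT-III membrane-cutting machinery, stood at 153 and 144 FPKM, and the authors' deposited table gave it a log2 change of 0.64 (FDR 1.58e-21). PTMA, a small acidic nuclear protein, stood at 1102 and 1085 FPKM. Its m7G was lower in the authors' deposited table, with a log2 change of -0.26 (FDR 7.94e-18). These 3 RNAs thus had nearly the same input level in both lines and m7G changes well under 2-fold.

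Other called peaks with very small FDR changed by more. TNRC18, a large nuclear protein, was at 51.5 and 55.9 FPKM, and its log2 change in the authors' deposited table was 1.09. CCDC9, a coiled-coil protein, was at 20.9 and 18.3 FPKM, with a log2 change of 1.95 in the authors' deposited table. STUB1, the ubiquitin ligase CHIP that works with chaperones, was at 102 and 97.1 FPKM, with a log2 change of 1.12 in the authors' deposited table. FKBP4, a cochaperone of HSP90, was at 37.0 and 32.3 FPKM, and the authors' deposited table gave it 1.04. Among the lower peaks, MT2A, a metal-binding metallothionein, rose in the input from 26.9 to 43.3 FPKM (ratio 1.61, counting interval 1.42 to 1.84), while its m7G log2 change in the authors' deposited table was -2.12 (FDR 7.94e-11). ATP5C1, the gamma subunit of mitochondrial ATP synthase, held the strongest peak of the table, with a fold enrichment of IP over input of 281. Its input was 18.7 and 24.1 FPKM, and its m7G change in the authors' deposited table was -1.95 on the log2 scale. MKI67, a proliferation marker, was at 148 and 144 FPKM with a log2 change of -0.89 in the authors' deposited table, on a weak peak with an enrichment of 1.31.

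The largest called changes in genes of at least 5 FPKM went to similar sizes in both directions. On the higher side the authors' deposited table gave WRNIP1, an ATPase that binds the Werner helicase, a log2 change of 2.44. LRP11, a membrane protein of the LDL receptor family, followed with 2.36 in the authors' deposited table, and HOOK2, an adaptor of microtubule motors, with 2.28. PRPF18, a factor of the second splicing step, had 2.16 in the authors' deposited table, while its input was lower, at 7.28 and 4.105 FPKM (ratio 0.564, counting interval 0.427 to 0.740). FLAD1, which makes the cofactor FAD, had 2.05 in the authors' deposited table at 12.5 and 9.23 FPKM. On the lower side the authors' deposited table gave RNF14, a ubiquitin ligase, -2.77, TPMT, which methylates thiopurine drugs, -2.71, and ZFC3H1, which directs nuclear RNA to the exosome, -2.44. FEM1B, a substrate receptor of a ubiquitin ligase, stood at -2.37 in the authors' deposited table. The inputs of these 4 lower genes were between 5.44 and 8.93 FPKM in both lines. Of their FPKM ratios that of RNF14, 1.15 (0.9998 to 1.32), was the farthest from 1. Their peaks were weak, with enrichments of 3.4 (RNF14), 4.42 (TPMT), 2.64 (ZFC3H1) and 2.19 (FEM1B), against a median of 12.4 over all peaks. On the higher side WRNIP1 had an enrichment of 1.83, HOOK2 2.28, FLAD1 5.4, LRP11 7.73 and PRPF18 84.9.

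From 1 FPKM up, the share of called peaks was larger at each higher RNA level, and the size of the changes went the other way. Below 1 FPKM 1.43% of 1050 peaks were called, from 1 to 5 FPKM 0.918% of 2722, from 5 to 20 FPKM 4.57% of 3767, and from 20 to 100 FPKM 12.6% of 1672. Of the 239 peaks in RNAs of at least 100 FPKM, 31.0% were called (exact 95% interval 25.2 to 37.2), 49 higher and 25 lower. Changes of at least 2-fold were most frequent at 1 to 5 FPKM (30.5%) and least frequent at 100 FPKM and over (5.02%). Among called peaks the median size of the log2 change was 1.41 at 1 to 5 FPKM, 1.21 at 5 to 20, 0.71 at 20 to 100 and 0.44 at 100 and over. Across the 9450 genes, which share their libraries, the size of the m7G change and the log10 FPKM had a Spearman correlation of -0.17, and the signed change and the log10 FPKM one of 0.0053. More abundant RNAs had smaller and more often called changes, with no lean to either direction in this correlation.

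**Figure D2:**
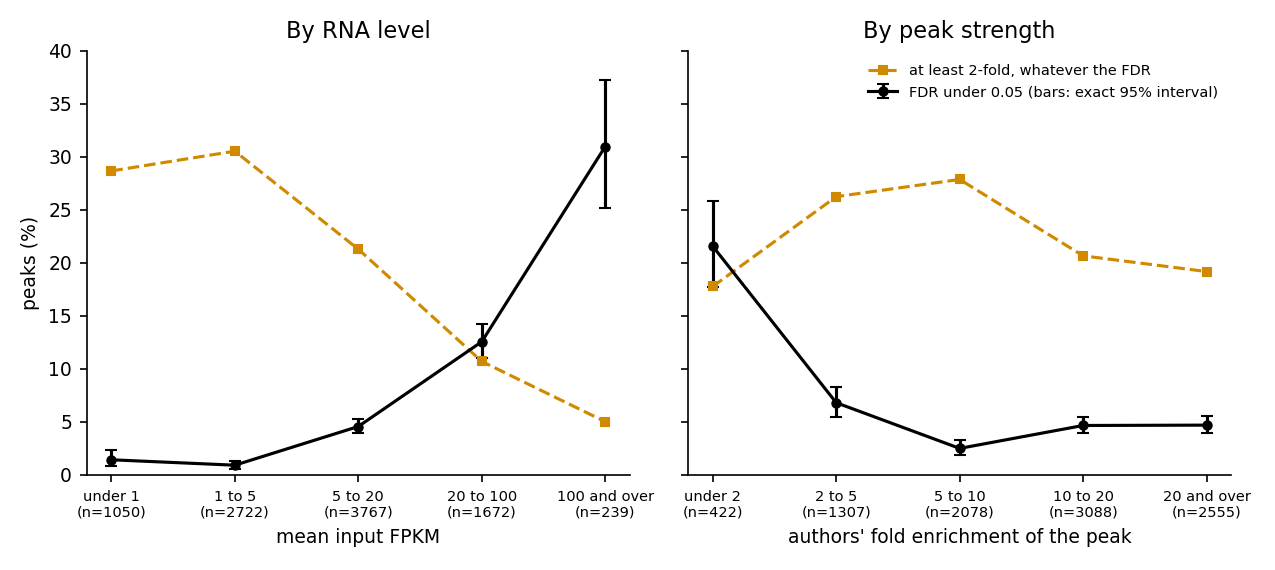
Percentage of peaks with an FDR under 0.05 (black, bars are exact 95% intervals over peaks) and of peaks changed at least 2-fold (orange, without intervals), by mean input FPKM (left) and by the authors' fold enrichment (right), with the number of peaks below each group. The black line goes from 1.43% below 1 FPKM to 0.918% at 1 to 5 and then up to 31.0%, the orange line from 28.7% to 30.5% and then down to 5.02%, and weak peaks were called most often.

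Weak peaks were called most often. The authors' fold enrichment had a median of 12.4, with quartiles of 6.95 and 21.1, and over which libraries it was taken is not stated. Of the 422 peaks with an enrichment under 2, 21.6% were called (17.7 to 25.8), 39 higher and 52 lower, and their median log2 change was -0.13. Calls fell to 6.81% at 2 to 5 and 2.502% at 5 to 10, and were 4.66% at 10 to 20 and 4.70% at 20 and over. The weak peaks also lay in more abundant RNAs, with a median of 21.0 FPKM against 7.03 over all peaks. Within the RNAs of 20 to 100 FPKM the order held: 24.2% of 190 peaks under 2 were called (18.3 to 30.9) and 10.1% of 485 peaks at 20 and over (7.57 to 13.1). Within 100 FPKM and over, 65.5% of 29 peaks under an enrichment of 2 were called (45.7 to 82.1). HNRNPA1, a splicing regulator at 267 and 266 FPKM, is one of these: its enrichment was 1.11 and its log2 change -0.47 in the authors' deposited table.

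Wide peaks had small changes. Peaks covered a median of 271 bases (quartiles 209 and 361), and 58.8% were split by introns into more than 1 block. From the narrowest to the widest quartile, the share changed at least 2-fold went from 31.3% to 28.4%, 17.5% and 11.4%, while the called share went from 2.58% to 4.13%, 5.81% and 8.73%. RNA level moved with this, from a median of 3.82 FPKM in the narrowest quartile to 11.1 FPKM in the widest, and its part in the result was not tested.

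Peaks in coding sequence were called more often than those in the 5' UTR. By the class in the table, 8.30% of 2784 CDS peaks were called (7.30 to 9.38), 136 higher and 95 lower, and 3.85% of 4680 5' UTR peaks (3.31 to 4.44), 101 higher and 79 lower. Exon-class peaks were called in 3.98% of 1758 and 3' UTR peaks in 7.69% of 195, the latter 7 higher and 8 lower. None of the 33 start codon peaks was called by the authors' FDR, which allows a share of up to 10.6% (upper limit of the exact 95% interval). Median log2 changes were 0.018 in the 5' UTR, 0.013 in CDS, 0 in the exon class and -0.13 in the 3' UTR. Strength split the CDS peaks. Those with an enrichment under 5 were called in 14.1% of 872, 57 higher and 66 lower, with a median of -0.16, and those of at least 5 in 5.65% of 1912, 79 higher and 29 lower, with a median of 0.076.

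Examples from the 3' UTR went both ways. TRIR, an exoribonuclease, stood at 142 and 147 FPKM, with a log2 change of 0.59 in the authors' deposited table. CLTB, a light chain of clathrin, stood at 70.4 and 72.6 FPKM, with 0.71 in the authors' deposited table. MAGI3, a scaffold of cell junctions, stood at 8.91 and 10.3 FPKM, with -1.99 in the authors' deposited table. The input ratios of these 3 genes were 1.04, 1.03 and 1.15. Their peaks were weak, with enrichments of 2.1, 1.73 and 1.84.

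Position on the gene was measured against RefSeq starts for the 6986 of 8528 protein-coding genes that matched an entry (81.9%). Most matched peaks, 4342, covered the start, within 250 bases upstream to 50 bases downstream at their 5' edge, and 4.40% of these were called (3.81 to 5.05), 121 higher and 70 lower, with a median log2 change of 0.030. Peaks that began more than 250 bases after the start numbered 1528, counted along the genome with introns included. Of these, 9.75% were called (8.31 to 11.3), 68 higher and 81 lower, with a median of -0.11. At 20 to 100 FPKM 10.5% of 808 start peaks and 18.2% of 357 distal peaks were called, and at 100 FPKM and over 21.0% of 124 (14.2 to 29.2) and 60.5% of 38 (43.4 to 76.0). The distal peaks were weaker, with a median enrichment of 3.17 against 15.8 at the start, and the part of strength in this difference was not tested. Changes of at least 2-fold were found in 24.4% of the distal peaks and 21.0% of those over the start.

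**Figure D3:**
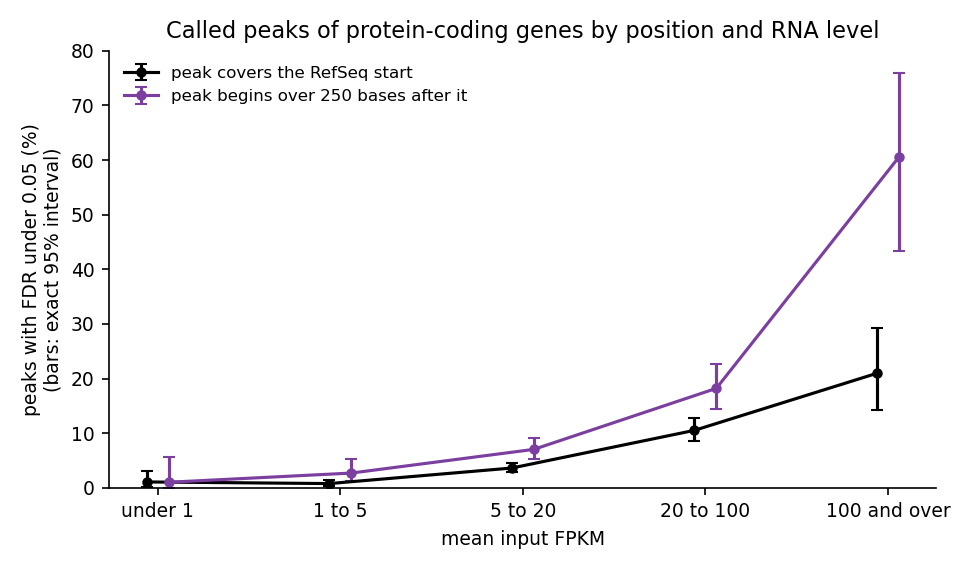
Percentage of peaks with an FDR under 0.05 (vertical axis, bars are exact 95% intervals over peaks) by mean input FPKM (horizontal axis), for protein-coding genes whose peak covers the RefSeq start (black) or begins over 250 bases after it (purple). At 100 FPKM and over the shares are 21.0% and 60.5%.

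Sequence near the start was compared in the same 6986 genes. AGGT, searched on the transcribed strand of the first 50 bases, was in 14.9% of the matched genes and 16.5% of all 35116 RefSeq promoters, and its other-strand form ACCT in 9.49% and 13.5%. Genes with AGGT had a median log2 change of -0.019 with 6.14% called, and genes without it 0.014 with 5.57% called. A start of C followed by 4 or more pyrimidines, the feature of mRNAs that encode the translation machinery, was in 5.63% of the matched genes and 4.07% of the promoters. These 393 genes had a median of -0.028, and 9.41% were called (6.72 to 12.7), 16 higher and 21 lower, beside 5.43% of the others. Their median input was 11.7 FPKM against 7.99 in the others. GC content was taken over a 300-base window of genomic sequence, 250 bases upstream of the start and the first 50 from it. It thus describes mostly the promoter and not the RNA. By this GC content, the medians went from -0.037 in the genes of lowest GC (up to 58%) to 0.10 in those of highest GC (from 74%). Calls were 32 higher and 29 lower in the former and 53 and 30 in the latter.

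Read as knockdown over control, m7G and input RNA had opposite signs more often than the same sign, and under the reverse reading of the m7G change these shares change places. Both changes use the same input libraries, and the part of this sharing in the pattern was not tested. The Spearman correlation across the 9450 genes was -0.14, and within the RNA levels it was -0.099 below 1 FPKM, -0.11 at 1 to 5, -0.16 at 5 to 20, -0.24 at 20 to 100 and -0.044 at 100 and over. The median m7G log2 change was 0.22 where the input was lower by 0.25 to 0.5 on the log2 scale (1031 genes), and -0.16 where it was higher by the same amount (1159 genes). Where the input rose by 1 or more it was -0.42 (49 genes), but where the input fell by 1 or more it was 0.0057 (61 genes). Of 849 genes with an authors' p under 0.05 for both changes, 600 (70.7%, 67.5 to 73.7) had opposite signs, 325 with lower input and higher m7G and 275 with higher input and lower m7G. Among all other genes with a nonzero m7G change the share was 54.2% of 8485.

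**Figure D4:**
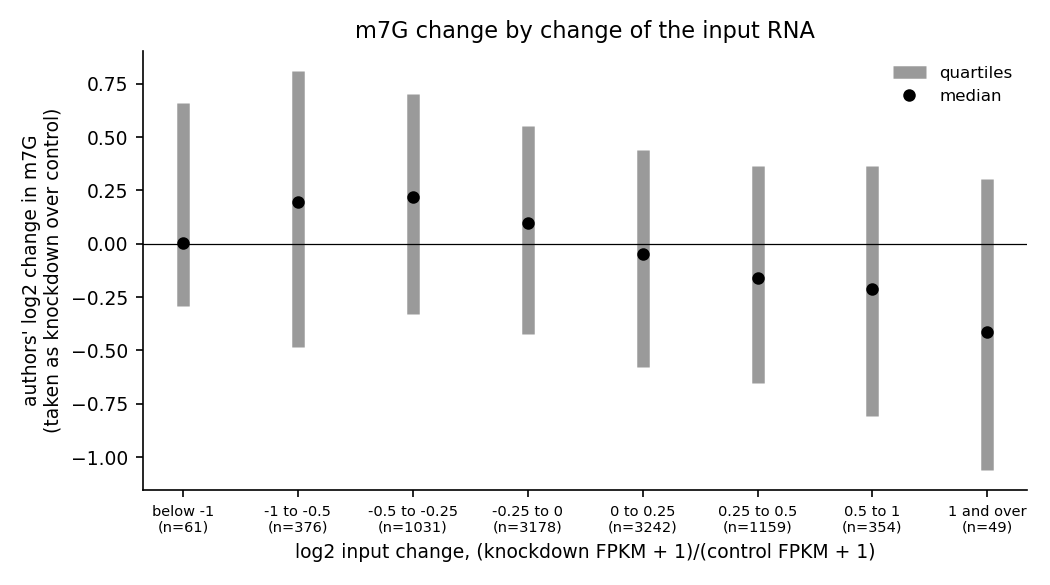
Median (points) and quartiles (grey bars) of the authors' log2 change in m7G by the log2 change of the input, (knockdown FPKM + 1)/(control FPKM + 1), with the number of genes below each group. The median goes from 0.22 at an input change of -0.5 to -0.25 to -0.42 at 1 and over, while the group below -1 sits near 0.

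Input RNA itself rarely changed past 2-fold: of the 8400 genes whose mean reached 1 FPKM, 36 (0.429%) were higher and 47 (0.56%) lower on the log2(FPKM + 1) scale, which understates the change of low genes. Of the 12 genes with the largest input changes, 6 in each direction, 2 were called for m7G, beside 5.25% of all peaks. CXCL1, a neutrophil-attracting chemokine, went from 42.7 to 8.10 FPKM (ratio 0.189, counting interval 0.155 to 0.231), and its m7G change in the authors' deposited table was 0.12 (FDR 0.676). CXCL2, a chemokine of the same family, went from 30.5 to 9.003 FPKM, with an m7G change of 0.052 in the authors' deposited table. SAA1, an acute-phase protein, went from 37.1 to 9.67 FPKM, with an m7G change of -0.28 (FDR 0.655) in the authors' deposited table. LCN2, an iron-scavenging defence protein, and CXCL5 were the called ones. LCN2 went from 163 to 39.2 FPKM with an m7G change of 0.38 (FDR 0.00676) in the authors' deposited table. CXCL5 went from 436 to 142 FPKM with -0.21 (FDR 0.0447) in the authors' deposited table. On the other side C6orf15 went from 2.69 to 11.3 FPKM, with an m7G change of 2.08 (FDR 0.520) in the authors' deposited table. CST7, a cysteine protease inhibitor, went from 16.4 to 44.5 FPKM with -0.52 (FDR 0.652) there.

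By function, calls went both ways within most groups. Of 40 gene lists, 37 had listed genes, 26 of these held calls in both directions and 3 held none. Higher calls outnumbered lower ones in 22 lists, lower ones in 8, and they were equal in 4 with calls. Higher calls were also the more frequent over all peaks, with 290 higher and 206 lower. The median log2 change went the other way in many lists, and was below 0 in 19 of the 37. The list medians lay between -0.35 and 0.30. Members of any list numbered 1741, and 140 of them (8.04%) were called, beside 5.25% of all peaks. By RNA level, 4.57% of all peaks were called at 5 to 20 FPKM, 12.6% at 20 to 100 and 31.0% at 100 and over. No list was tested.

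**Figure D5:**
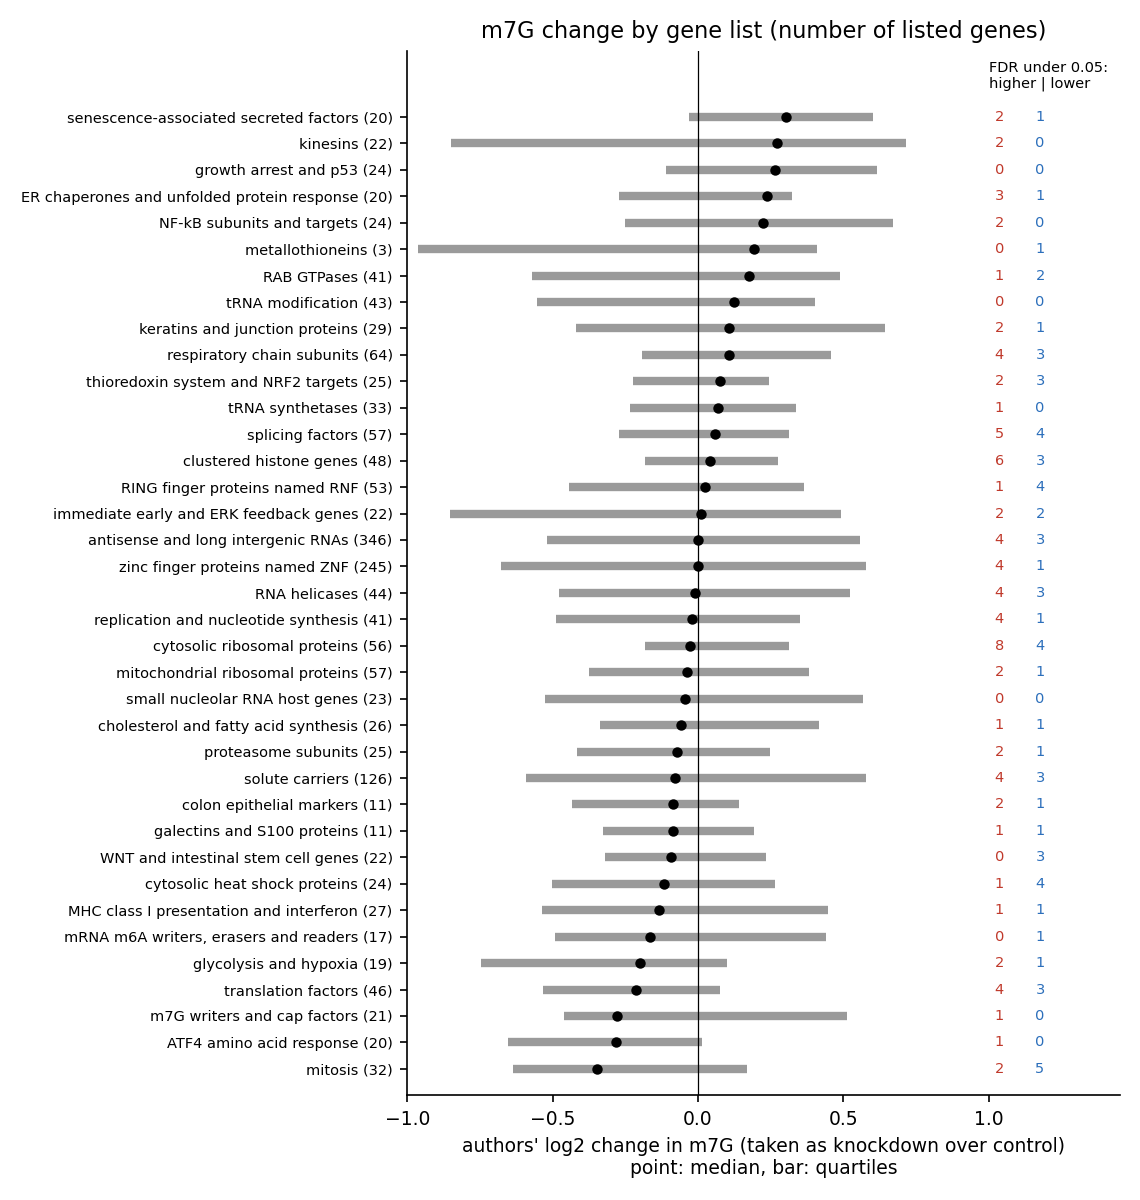
Median (points) and quartiles (grey bars) of the authors' log2 change in m7G in each of the 37 gene lists with members, with the number of listed genes in parentheses and the numbers of called peaks at the right, higher in red and lower in blue. The medians run from -0.35 in the mitosis list to 0.30 in the list of senescence-associated secreted factors, and every quartile bar but that of the 3 metallothioneins lies inside -0.9 and 0.9.

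The genes of the m7G machinery lay on both sides of 0. Of 21 writers of m7G and factors that bind, remove or further modify the cap, 8 had a change above 0, 1 was called higher and none lower. It was SNUPN, the adaptor that imports capped spliceosomal RNPs into the nucleus, at 6.20 FPKM in the control and 2.96 in the knockdown, with a log2 change of 2.17 (FDR 2.82e-05) in the authors' deposited table. METTL1's own peak had a log2 change of -2.20 in the authors' deposited table and was not called (FDR 0.635). WDR4 had 1.40 (FDR 0.513) in the authors' deposited table. The median of the list was -0.28. None of 43 tRNA modification genes was called by the authors' FDR, though 4 were higher and 3 lower at an unadjusted p under 0.05, and of 33 tRNA synthetases HARS, which charges tRNA with histidine, was called, with 1.46 in the authors' deposited table. Of 17 writers, erasers and readers of N6-methyladenosine, VIRMA, a subunit of its writer complex, was called, with -0.70 in the authors' deposited table.

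The called share of cytosolic ribosomal protein genes lay between those of all peaks at similar RNA levels. Of 56 such genes, with a median of 88.7 FPKM, 8 were called higher and 4 lower (21.4%), beside 12.6% and 31.0% of all peaks at 20 to 100 FPKM and at 100 FPKM and over. None of the 12 changed 2-fold. Of the 56, 3.57% changed at least 2-fold, beside 10.7% and 5.02% of all peaks at these 2 levels. RPL8 of the large subunit was at 687 and 645 FPKM, with a log2 change of 0.26 in the authors' deposited table. The median of the list was -0.028, so the called members and the list as a whole did not lean the same way. Of 46 translation factors 4 were called higher and 3 lower, with a median of -0.21, or -0.068 over the 39 at 5 FPKM and over. The called share of the 46 was 15.2% at a median of 23.6 FPKM. EIF3K, a subunit of initiation factor eIF3, had 0.64 in the authors' deposited table. EEF1A1, the elongation factor that delivers tRNA, had -0.215 there at 612 and 599 FPKM. Of 57 mitochondrial ribosomal protein genes 2 were called higher and 1 lower (5.26%), at a median of 19.4 FPKM.

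Of 24 cytosolic heat shock genes 1 was called higher and 4 lower. The called share was 20.8% at a median of 84.8 FPKM, beside 12.6% of all peaks at 20 to 100 FPKM and 31.0% at 100 FPKM and over. CCT5 and CCT4, subunits of the same chaperonin, had -0.81 and -0.45 in the authors' deposited table, with inputs of 112 and 112 FPKM and of 183 and 193 FPKM. HSP90AB1, the constitutive HSP90, had -0.12 at 1199 and 1189 FPKM in the authors' deposited table. HSPA1B, an inducible HSP70, had -0.83 in the authors' deposited table while its input went from 31.0 to 49.1 FPKM, but it has a near-identical copy and its reads may be shared. Of 20 genes of ER chaperones and the unfolded protein response 3 were called higher and 1 lower. That was 20% at a median of 13.4 FPKM, beside 4.57% of all peaks at 5 to 20 FPKM. All 4 called genes, however, were above 100 FPKM in both inputs, and of all peaks at 100 FPKM and over 31.0% were called. The higher ones were HSP90B1, the HSP90 of the ER, with 0.31, HSPA5, the main ER chaperone, with 0.38, and CALR, a calcium-binding chaperone, with 0.21 in the authors' deposited table. The lower one was CANX, the membrane-bound partner of CALR, with -0.22 in the authors' deposited table. Of 25 proteasome genes, at a median of 32.2 FPKM, 2 were called higher and 1 lower (12%). Of these, PSMD11 of the regulatory cap had 0.91 and PSMA4 of the core -1.44 in the authors' deposited table.

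Respiratory chain genes were called in both directions. Of 64 subunits 4 were called higher and 3 lower, 3 of the 7 past 2-fold, and the list median was 0.11. The called share was 10.9% at a median of 19.3 FPKM, beside 4.57% of all peaks at 5 to 20 FPKM and 12.6% at 20 to 100 FPKM. NDUFB6 of complex I was at 15.4 and 9.30 FPKM in the inputs (ratio 0.605, counting interval 0.488 to 0.747), with an m7G log2 change of 1.69 in the authors' deposited table. NDUFA6 of the same complex was at 144 and 108 FPKM with 0.41 in the authors' deposited table, and UQCRH of complex III at 82.9 and 67.0 FPKM with 0.41 there. ATP5C1 of the ATP synthase was the opposite case, with higher input and lower m7G. All 7 called subunits had input and m7G changes of opposite sign, beside 66.1% of all 496 called peaks.

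Cell cycle lists held calls of both signs. The mitosis list had the lowest median, -0.35, with 5 of 32 genes called lower and 2 higher. The called share was 21.9% at a median of 30.6 FPKM, beside 12.6% of all peaks at 20 to 100 FPKM. CENPF, a kinetochore protein, had -1.13 in the authors' deposited table, BUB1B, a spindle checkpoint kinase, -0.98, and TPX2, a spindle assembly factor, -0.79. Their inputs were 45.7 and 42.5 FPKM, 25.3 and 27.6 FPKM, and 64.5 and 62.8 FPKM. Their peaks had enrichments of 1.38, 17.1 and 13.5. Of 41 genes of replication and nucleotide synthesis 4 were called higher and 1 lower (12.2%), at a median of 21.9 FPKM. TYMS, which makes thymidylate, had 0.51 at 269 and 295 FPKM in the authors' deposited table, and E2F1, a transcription factor of S phase, 0.86. UHRF1, which maintains DNA methylation, was the lower one, with -0.91 in the authors' deposited table, on a weak peak with an enrichment of 1.34. Of 48 clustered histone genes 6 were called higher and 3 lower (18.8%), at a median of 123 FPKM. Of all peaks at 100 FPKM and over 31.0% were called. HIST1H2AB had -0.99 and HIST1H4A 0.55 in the authors' deposited table, at 183 and 224 FPKM and at 325 and 240 FPKM. Histone genes are near-identical copies that may share reads. None of 24 growth arrest and p53 genes was called by the authors' FDR, and 3 were higher and 1 lower at an unadjusted p under 0.05.

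Genes of RNA handling and ubiquitin ligases were called in both directions. Of 57 splicing factors 5 were called higher and 4 lower. PRPF19, a scaffold of the spliceosome, had -1.43 at 59.8 and 54.2 FPKM, and SRSF4, a serine-arginine splicing factor, 0.37 at 26.9 and 27.0 FPKM in the authors' deposited table. Of 44 RNA helicases 4 were called higher and 3 lower (15.9%), at a median of 17.1 FPKM. Of all peaks at 5 to 20 FPKM 4.57% were called, and at 20 to 100 FPKM 12.6%. DDX27, a nucleolar helicase, had 0.72 and DDX10, of the same family, -1.39 in the authors' deposited table. Of 53 RING finger genes named RNF, a family rich in ubiquitin ligases, 1 was called higher and 4 lower (9.43%). The median of the 53 was 7.90 FPKM. The lower ones were RNF14, RNF40, RNF213 and RNF20. RNF20 and RNF40 form the complex that attaches ubiquitin to histone H2B. RNF40 had -2.07 at 46.4 and 51.3 FPKM, and RNF20 -0.84 at 18.9 and 20.6 FPKM, in the authors' deposited table. Both peaks were weak, with enrichments of 1.83 and 2.59. Of 245 zinc finger genes named ZNF 4 were called higher and 1 lower, 2.04% together, at a median of 3.61 FPKM.

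Each of the lists of signalling genes and secreted factors held 2 to 4 called genes, between 8.33% and 18.2% of its members, beside 5.25% of all peaks. The median input of these lists lay between 8.58 and 21.5 FPKM. Of all peaks, 4.57% were called at 5 to 20 FPKM and 12.6% at 20 to 100. Of 22 WNT and intestinal stem cell genes 3 were called lower and none higher. ZNRF3, a ligase that removes WNT receptors, had -1.68 at 14.9 and 19.3 FPKM in the authors' deposited table. TCF7L2, the transcription factor at the end of the WNT pathway, had -1.17 at 20.1 and 24.8 FPKM, and DVL3, which relays the signal from the receptor, -0.60 at 18.2 and 23.8 FPKM, both in the authors' deposited table. The input was higher in the knockdown for all 3, with counting intervals of the ratio above 1, and the median of the 22 genes was -0.091. Of 24 NF-kB subunits and targets 2 were called higher and none lower. These were LCN2 and NFKBIA, the inhibitor of NF-kB, which had 0.66 in the authors' deposited table at 81.3 and 59.99 FPKM. The median of that list was 0.22 for m7G and -0.33 for the input. The list of 20 senescence-associated secreted factors had the highest median, 0.30, with 2 called higher and 1 lower. CXCL16, a chemokine made by epithelia, had 1.23 at 25.6 and 18.7 FPKM in the authors' deposited table. GDF15, a stress-induced cytokine, had 0.70 at 79.3 and 84.8 FPKM there. Their peaks had enrichments of 36.5 and 1.35. Of 22 immediate early and ERK feedback genes 2 were called in each direction. JUNB had 1.57 and KLF6 1.04, and FOSL1 -0.57 and PHLDA1 -0.62 in the authors' deposited table.

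Epithelial and metabolic genes likewise split. The keratins KRT18 and KRT19 were called higher and KRT8 lower, with 0.11, 0.54 and -0.29 in the authors' deposited table, while the inputs of all 3 were higher in the knockdown (ratios 1.22, 1.31 and 1.19). Of 25 genes of the thioredoxin system and NRF2 targets 2 were called higher and 3 lower (20%), at a median of 47.3 FPKM. The peroxidases PRDX6 and PRDX1 had -0.70 and -0.42, and GSTP1, a glutathione transferase, 0.79 in the authors' deposited table. SREBF2, a transcription factor that drives cholesterol synthesis genes, was called lower, with -0.997 in the authors' deposited table at 32.0 and 37.1 FPKM. Its peak was weak, with an enrichment of 1.37. In the list of glycolysis and hypoxia, at a median of 13.3 FPKM, 2 of 19 genes were called higher and 1 lower (15.8%). HK2 and TPI1 had 0.64 and 0.19, and PFKM had -1.39, in the authors' deposited table.

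Antisense RNAs and lincRNAs had few calls and low RNA levels. Of 425 antisense RNAs 4 were called, all higher (0.941%, exact 95% interval 0.257 to 2.39), at a median of 0.815 FPKM, and of 225 lincRNAs 1 higher and 2 lower (1.33%), at 1.35 FPKM. Protein-coding genes were called in 5.64% of 8528, at a median of 7.94 FPKM, and all peaks below 1 FPKM in 1.43%. Of 63 processed transcripts 6.35% were called (1.76 to 15.5). MALAT1, an abundant nuclear RNA, stood at 896 and 803 FPKM, and its log2 change in the authors' deposited table was -0.46 (FDR 0.000158). MIF-AS1 had 0.27 (FDR 0.000191) in the authors' deposited table, although its input was 0.907 and 0.0583 FPKM. The table's counting is not stated to use strand, so reads of an antisense gene and of its partner may not be told apart.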

How the data were processed

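Input RNA and m7G immunoprecipitates of DLD1 METTL1-knockdown and control cells were measured, with 1 library each. Per the submitters' processing notes, cutadapt 2.5, HISAT2 2.1.0, featureCounts 1.6.3, SAMtools 1.10, HOMER 4.10.4 and DESeq2 were used with the builds GRCh38, hg38 and GRCm38. The caller of peaks and of their change, and how 1 peak per gene was chosen, are not given in the sources used here. Values of the deposited table are input FPKM and, per the file headers, a log2 fold change of input with its p-value, a fold enrichment (a ratio), a log2 change of m7G, and a log10 p-value and log10 FDR for it.

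The members and gene lists were chosen with earlier results of these data known. Peaks were counted by the authors' FDR (0.05) and by 2-fold size; no test was run. Intervals of shares are exact (Clopper-Pearson, 95%) and treat peaks as independent. FPKM ratios of all 9348 genes above 0 in both inputs were ratios of whole numbers (relative tolerance 1e-14). The smallest such reads gave the ratio intervals, and PCR copies are not independent molecules. The recovery was tested on simulated data. The input change used log2(FPKM + 1) and genes of at least 1 FPKM. Named were METTL1, WDR4, the 12 smallest FDR per direction, the 10 largest called changes per direction (at least 5 FPKM), up to 4 called genes per list, the 6 largest input changes per direction, and 2 per class and direction. Python 3.11.15, pandas 2.3.3 and SciPy 1.17.1 were used. Alternatives were other thresholds, filters, classes and pseudocounts and the reverse reading. The co-culture RNA-seq was not used here. Results for some named genes are not reported here.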

Additional observations from a re-analysis of the deposited data

How the results depend on the processing

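No paired analysis was possible because each group held 1 library, and no replicate could be left out. Higher and lower calls numbered 150 and 93 at an FDR under 0.01 and 813 and 709 at an unadjusted p under 0.05, against 290 and 206, and lower calls numbered 118 with an enrichment of at least 5. Restricted to a mean of at least 5 FPKM, 473 peaks were 2-fold higher and 520 lower, against 1045 and 1080. With a pseudocount of 0.1 FPKM, 103 inputs were 2-fold higher and 112 lower, against 36 and 47. Read as control over knockdown, the median m7G change was -0.0043 and its correlation with the input change 0.14. That correlation was -0.17 at 5 FPKM and over.

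Among 5' UTR peaks alone, 3.75% were called at 5 to 20 FPKM, 9.89% at 20 to 100 and 18.2% at 100 and over. At 5 FPKM and over, called shares by enrichment were 9.32% (2 to 5), 4.93% (5 to 10), 7.38% (10 to 20) and 6.36% (20 and over). By class they were 5.92% (5' UTR), 11.1% (CDS) and 8.01% (exon). By position, chosen after seeing the data, they were 6.40% over the start, 7.83% at 51 to 250 bases after it, 12.3% beyond and 7.74% elsewhere. Another 27 values stayed within 1.5 times (counts) or within the 95% interval (medians, shares, correlations). They include counts under the reverse reading, which only swaps higher and lower, and counts re-centred on a median near 0. Such counts are no sign of stability. List medians kept their sign at 5 FPKM and over in 30 of 37 lists. The medians of 2 lists moved from 0, that of ZNF genes to 0.14 and that of antisense and long intergenic RNAs to -0.095, and the 5 lists with another sign were N6-methyladenosine factors, growth arrest, metallothioneins, immediate early genes and colon markers. The depth of the IP libraries was not analysed here.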

Other observations

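By chromosome, median m7G log2 changes ran from -0.14 to 0.16 among the autosomes and X. On chromosome 12, which carries METTL1, the median log2 change of 516 peaks was -0.14, the lowest, and 42.2% were above 0, while 19 peaks there were called higher and 16 lower, and the median input change there was -0.013. It was -0.063 over the peaks of at least 5 FPKM and -0.071 without those between 60 and 90 Mb, both alternatives chosen after seeing the data. Chromosome 20 had the highest median, 0.16, with 56.3% of 261 peaks above 0. On chromosome 19, 32 of 623 peaks were called higher and 7 lower, and on chromosome 7, 11 of 496 higher and 1 lower. These counts were picked from all chromosomes after their values were seen, were not tested, and have no replicate check.

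All 9 listed genes of the U1 spliceosomal RNA, near-identical copies whose reads cannot be told apart, had m7G changes below 0 in the authors' deposited table, from -0.55 to -1.90, and 1 of them, at chr1:148522601-148522765, was called (FDR 0.000977). Of the U2 genes, U2 itself was at 346 FPKM in the control input and listed at 0 in the knockdown input, with an m7G change of -3.16 (FDR 0.558) in the authors' deposited table, and RNU2-63P had a change of 1.11 (FDR 0.643) in the authors' deposited table. RNA5-8SN4, a 5.8S ribosomal RNA at 66415 and 76727 FPKM, had -2.32 (FDR 0.0589) in the authors' deposited table.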
